A study of Mus musculus with 6 samples.

Results

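The immunoglobulin heavy- and light-chain segments were taken as all genes of the Igh, Igk and Igl loci, variable (V), diversity (D), joining (J) and constant, that are named in any variant list of the series. They came to 160 of 24223 gene names, and 89 of them had a listed variant inside the gene, that is in an exon or intron rather than upstream or downstream of it. Of the 160, 131 lie in the heavy-chain locus Igh on chromosome 12, 27 in the kappa locus Igk on chromosome 6 and 2 in the lambda locus Igl on chromosome 16. The name Ighmbp2 starts alike and belongs to a DNA-binding protein gene, so it was left out. Of 395 such segments that RefSeq lists, 136 of them pseudogenes, the 89 with a variant inside included 76 of 183 Ighv segments but 2 of 162 Igkv segments, and 4 of the 89 were pseudogenes (Ighv2-1, Ighv7-1, Ighv7-3 and Ighv1-30).

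Exome-captured genomic DNA of whole bone marrow was compared with that of ear from the same 3 mice, animals 54, 108 (both male) and 136 (female), each 1 marrow and 1 ear library. All carry the P95H change of the splicing factor Srsf2, had been given tamoxifen in vivo, are labelled C57BL/6, the strain of the mouse reference genome, and were sampled at 50 to 60 weeks, when moribund. No animal without the Srsf2 change was among the samples. The sample labels name the tamoxifen-activated R26CreERT2 driver, active in most tissues, for all 3 animals. The protocol text gives 1 of them the blood stem cell driver hScl-CreERT with an R26eYFP reporter, without saying which, so the driver was not used. DNA carries no expression marker, so the labelled tissues could not be checked, and the share of B-lineage cells in the marrow was not measured.

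An immunoglobulin heavy chain is assembled in developing B cells by V(D)J recombination, which joins 1 V, 1 D and 1 J segment and deletes the DNA between them. Light chains are likewise assembled by joining V and J segments. The joined V segment forms the antigen-binding domain, and the constant gene (Ighm for IgM, Ighg1, Ighg2b, Ighg2c and Ighg3 for IgG, Ighe for IgE, Igha for IgA) sets the class of the antibody. V segments are many, similar in sequence and differ widely between mouse strains. Ear holds few B cells, so its Igh DNA is mostly in the unrearranged state, while bone marrow is where B cells form.

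The lists held 24915 to 79759 variant sites per sample, with a median depth of 23 to 35 reads over all sites and of 52 to 117.5 reads at coding sites. No list gives the depth at a position without a variant. In animal 54 the median depth inside the segments was 292 reads in marrow and 512.5 in ear, against 33 and 35 reads over all sites of the same lists. Mapping quality, a score of how uniquely the reads at a site align, had a median of 35 at segment sites in both tissues of animal 54, and of 41 over all sites.

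Variation in the segments was nearly all in animal 54 and nearly all in Igh. Animal 54 had 450 sites inside segments in its marrow and 492 in its ear. Animal 108 had 3 in its marrow and 3 in its ear, and animal 136 had 1 in its marrow and 4 in its ear. Of the sites of animal 54, 448 in marrow and 492 in ear were in Igh, and 2 in marrow were in Igk. No site lay inside an Igl segment in any sample. Each tissue of animal 54 had 77 or 78 segments with a site, 77 in marrow and 78 in ear.

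The marrow and ear of animal 54 shared 425 of these sites. Of them 338 were in 65 V genes, 85 in 7 constant genes, 1 in the diversity segment Ighd3-2 and 1 in the joining segment Ighj1. Over the whole Igh locus, from Igha at its lower end to Ighv1-86 at its upper end (chr12:113256204-116009954 in GRCm38, 2754 kb), 1849 sites were listed in both tissues of animal 54, or 67.1 per 100 kb. The same stretch held 2 shared sites in animal 108 and 3 in animal 136. The dense run of animal 54 started shortly below Igha and continued above the V genes, with 85 shared sites in the 1000 kb below the locus and 385 in the 1000 kb above it. The median variant fraction, reads of the variant allele as a percentage of reads of both alleles, was 47.2% in marrow and 46.8% in ear over the locus, and 47.4% in marrow and 47.4% in ear in the 1000 kb above it. The Igk locus (3171 kb) held 3, 3 and 2 shared sites in animals 54, 108 and 136, and the Igl locus held 0 in each.

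**Figure D1:**
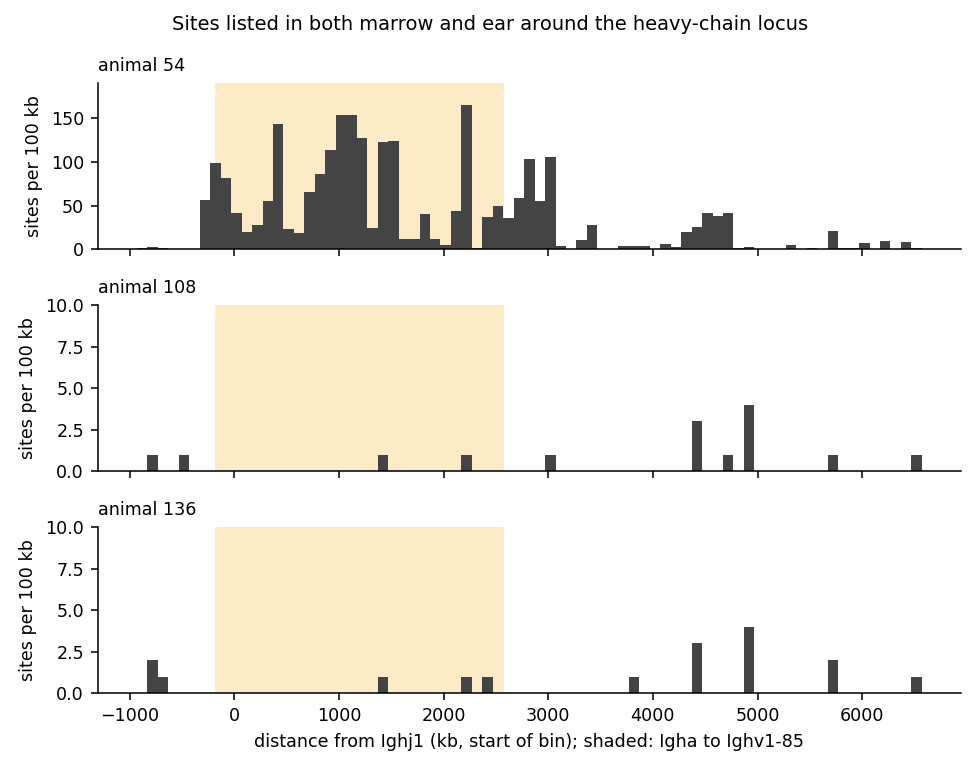
Number of sites listed in both marrow and ear per 100 kb of chromosome 12 (vertical axis) against the distance from Ighj1 in kb (horizontal axis), for animals 54, 108 and 136. The vertical scale of the upper panel differs from the other panels. Animal 54 has up to 165 sites per 100 kb over the shaded locus, and no bin of the other animals has more than 4.

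All 7 constant genes with a site had their shared sites at intermediate fractions in both tissues. Ighg2c, the IgG2c gene of C57BL/6, had 30 shared sites with a median fraction of 39.4% in marrow (25.0% to 57.6%) and 40.4% in ear (27.4% to 60.7%), of which 10 were missense, 2 synonymous and 18 intronic. Igha had 14 shared sites with a median of 48.8% in marrow and 45.3% in ear, 9 of them missense and none synonymous. Ighg1 had 12 with 51.8% in marrow and 50.1% in ear, Ighe 11 with 45.0% in marrow and 47.9% in ear, and Ighg2b 8 with 47.9% in marrow and 54.8% in ear. Ighg3 had 7 with 51.4% in marrow and 48.5% in ear, and Ighm, the first constant gene after the J segments, had 3 with 51.7% in marrow and 46.8% in ear. The IgD gene Ighd was named in no annotation. Over the 85 constant-gene sites, 80 were between 30% and 70% in both tissues.

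The J and D segments each had 1 shared site, both missense. The site in Ighj1 had 86 variant reads of 153 (56.2%) in marrow and 97 of 194 (50.0%) in ear. The site in Ighd3-2 had 67 of 137 (48.9%) in marrow and 73 of 168 (43.5%) in ear. Both fractions were near 50% in either tissue.

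The V genes spread more widely than the constant genes. Their 338 sites ran from 16.4% to 89.8% in marrow and from 16.8% to 89.7% in ear, with medians of 45.4% in marrow and 45.5% in ear, and 265 were between 30% and 70% in both tissues. None of the 425 segment sites was above 90% in both tissues, against 893 of the other 32307 shared sites. The genes with the most sites over the 6 lists were Ighg2c (68), Ighv6-3 (37), Igha (33), Ighv5-17 (32), Ighv15-2 (30), Ighv1-85 (29), Ighg1 (27), Ighv7-2 (26), Ighv1-67 (24) and Ighv7-1 (24).

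V genes differed from each other in their fractions, and their order was alike in marrow and ear. Ighv5-17 had 16 shared sites from 41.5% to 55.1% in marrow and from 32.9% to 50.1% in ear. Ighv6-3 had 16 with medians of 32.8% in marrow and 32.2% in ear, and Ighv15-2 had 15 with 34.7% in marrow and 37.2% in ear. Ighv1-85, the V gene with a shared site that is farthest from the J segments, had 11 with 36.7% in marrow and 34.4% in ear, and Ighv7-2 had 10 with 30.6% in marrow and 32.6% in ear. At the high end, Ighv1-67 had 12 shared sites from 24.2% to 89.8% in marrow and from 22.9% to 89.7% in ear. Over the 48 genes with at least 3 shared sites, the gene medians of marrow and ear had a Pearson correlation of 0.945 and a Spearman correlation of 0.890. These genes share the 2 libraries and the capture, so the value is a description.

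**Figure D2:**
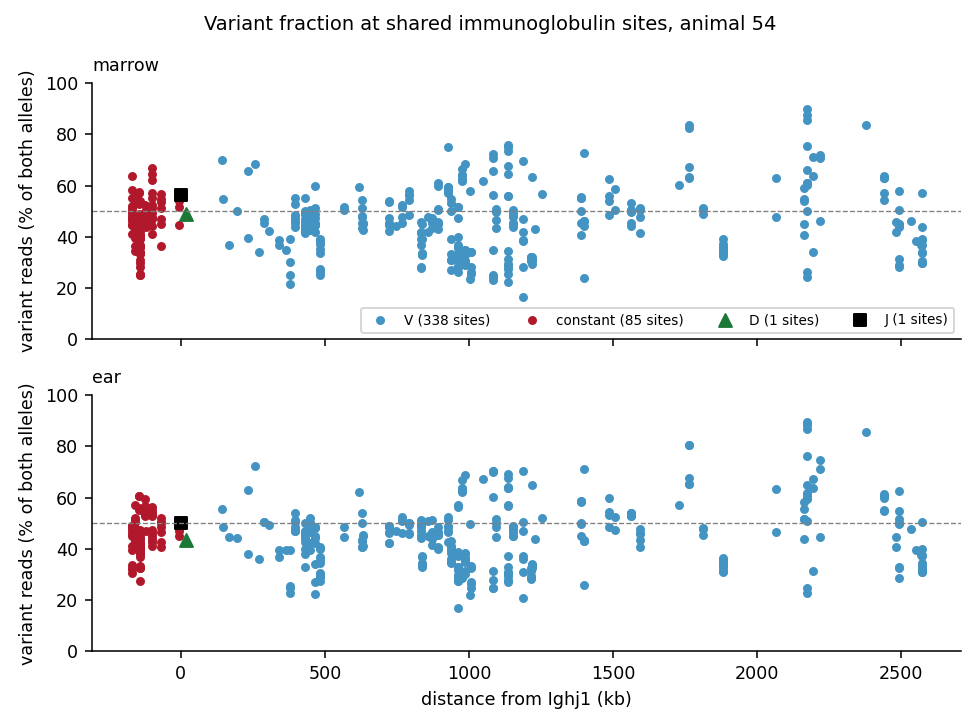
Variant reads as a percentage of both alleles (vertical axis) at the 425 shared sites of animal 54 against distance from Ighj1 in kb (horizontal axis), marrow above and ear below. The dashed line marks 50%. The 85 constant-gene sites lie between 25.0% and 66.7% in marrow and between 27.4% and 60.7% in ear, and the 338 V sites spread between 16.4% and 89.8% in marrow and between 16.8% and 89.7% in ear.

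Fractions differed between classes of mapping quality, with no steady order, and the part of mapping quality in the spread was not tested. Over 48 genes, ear mapping quality and ear median fraction had a Pearson correlation of -0.411 and a Spearman correlation of -0.265. The class of at least 40 was set by both tissues and the others by ear, so some sites fell in none. The 97 sites with a mapping quality of at least 40 in both tissues had medians of 47.1% in marrow and 46.8% in ear, and 90.7% of them were between 30% and 70% in both. The 224 sites from 30 to under 40 in ear had medians of 42.0% in marrow and 40.4% in ear, with 75.0% between 30% and 70%. The 98 sites under 30 in ear had the highest medians, 50.6% in marrow and 50.1% in ear, with 87.8% between 30% and 70%. By family, the 129 sites of Ighv1, the largest family with 92 RefSeq genes, had medians of 46.1% in marrow and 48.6% in ear at a median ear mapping quality of 31. The 41 sites of 4 Ighv6 genes had 32.8% in marrow and 33.0% in ear.

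Of the 425 shared sites, 210 were missense and 118 synonymous, a ratio of 1.78, with 174 to 105 in V genes and 34 to 13 in constant genes. Counted by the highest predicted impact, the segments had 210 moderate to 128 low impact sites (1.64), and all other shared sites of animal 54 had 1843 to 3635 (0.507). No test was made of that difference, since neighbouring sites of 1 haplotype are not independent.

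Premature stops and frameshifts in V genes were found in both tissues or in ear. The stop p.Trp63* in Ighv7-2 had 39 variant reads of 149 (26.2%) in marrow and 75 of 244 (30.7%) in ear. The stop p.Trp37* in Ighv3-3 had 40 of 84 (47.6%) in marrow and 94 of 184 (51.1%) in ear. Ighv7-2 also had the frameshift p.Thr106fs, with 35 of 91 (38.5%) in marrow and 62 of 153 (40.5%) in ear. Next to it the lists differed: p.Arg105delinsSerAla stood in the marrow list with 31 of 89 reads, and p.Arg105fs in the ear list with 66 of 156. Listed only in ear were the stops p.Trp55* (290 of 743 reads) and p.Glu20* (283 of 783) in Ighv14-2 and p.Trp47* (344 of 1155) in Ighv1-30, at mapping qualities of 23, 23 and 24.

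Insertions and deletions were few. Those that marrow and ear of animal 54 both carried were 1 each in Ighv7-1, Ighv7-2, Ighm and Ighg1, and the alleles of the V genes are shown. They are written on the plus strand as deposited. Capitals mark the bases that the variant lacks in Ighv7-1 (an intronic repeat at chr12:113896858-113896873, GRCm38) and the bases inserted in the coding part of Ighv7-2 (at chr12:113912063-113912063).
Ighv7-1 reference allele: tACacacacacacaca
Ighv7-1 variant allele: tacacacacacaca
Ighv7-2 variant allele, in place of a single t: tGTGC
The shorter Ighv7-1 allele had 18 variant reads of 38 (47.4%, exact 95% interval 31.0% to 64.2%) in marrow and 11 of 49 (22.4%, 11.8% to 36.6%) in ear, with intervals that overlapped. The Ighv7-2 insertion gives p.Thr106fs, described above. In introns of the constant genes, a deletion of 1 base in Ighm had 61 of 118 reads (51.7%) in marrow and 90 of 200 (45.0%) in ear, and an insertion of 2 bases in Ighg1 had 20 of 39 (51.3%) in marrow and 44 of 72 (61.1%) in ear.

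The first comparison asked whether marrow, where B cells form, lists more or fewer variants in the segments than ear. The log2 ratio of marrow to ear sites came to -0.13 for animal 54, 0 for animal 108 and -2 for animal 136, with a mean of -0.71 ± 1.12 (SD, n = 3), and of -0.064 without animal 136. In a two-sided exact permutation test that flips the sign of each pair, p was 0.5, where 3 pairs cannot give a p below 0.25. At all other sites the ratio was -0.66, 0.25 and 0.09 in animals 54, 108 and 136. Depth differed between the tissues as well, and its part in the counts was not tested: at all coding sites animal 54 had a median depth of 82 reads in its marrow and 117.5 in its ear, animal 108 one of 96 in its marrow and 94 in its ear, and animal 136 one of 77 in its marrow and 52 in its ear.

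Sites listed in 1 tissue alone were a small share in animal 54. There 25 of 450 marrow sites (5.56%) were absent from the ear list, and 67 of 492 ear sites (13.6%) were absent from the marrow list. In animal 108 these were 2 of 3 in marrow and 2 of 3 in ear, and in animal 136 they were 0 of 1 in marrow and 3 of 4 in ear. The difference in share averaged -27.7 ± 41.2 percentage points (SD, n = 3; exact paired permutation test, p = 0.5), and it rests on animal 136, without which it averaged -4.03 points. With upstream and downstream sites it averaged -6.97 points, and with a mapping quality of at least 30 it was -2.60 points in animal 54 and averaged -1.30 points over animals 54 and 108. At all other sites of animal 54, 24.5% of marrow sites and 52.1% of ear sites were listed in that tissue alone. The same shares were 37.3% in marrow and 25.7% in ear for animal 108, and 55.8% in marrow and 52.8% in ear for animal 136.

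Among the 25 marrow-only sites of animal 54, Ighv6-3 had 4, all protein-altering and all between 28.8% and 30.8%. Ighv1-64 had 2, Ighv5-15 had 2 and Ighv6-6 had 2. The 25 and the 67 each count an intronic insertion in Ighg1 that stands in both lists with its alleles spelled differently. With alleles trimmed to their shortest spelling, chosen after seeing the data, 426 sites were shared, 24 (5.33%) were in marrow alone and 66 (13.4%) in ear alone. The ear-only sites were most frequent in Ighg2c (7), Ighv1-85 (6), Igha (5), Ighv1-80 (5) and Ighv7-2 (5). Fractions were intermediate, with medians of 31.8% over the 25 marrow-only sites and 39.0% over the 67 ear-only sites. Median depths were 467 and 869 reads. By gene, the ear-only sites had median depths of 29 reads in Ighg2c, 14 in Igha, 235 in Ighv7-2, 1205 in Ighv1-80 and 1303.5 in Ighv1-85. Absence from a list does not show that the variant had no reads there.

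In animals 108 and 136, 1 variant was present in both tissues. It was p.Ser86Ala in Ighv1-69 (chr12:115623253-115623253, GRCm38), which was the only segment site listed in all 6 samples. Animal 54 had 873 variant reads of 1228 (71.1%) in marrow and 1219 of 1817 (67.1%) in ear. Animal 108 had 457 of 959 (47.7%) in marrow and 444 of 923 (48.1%) in ear, and animal 136 had 504 of 992 (50.8%) in marrow and 369 of 748 (49.3%) in ear. In animal 54 the exact 95% intervals of marrow (68.5% to 73.6%) and ear (64.9% to 69.2%) overlapped, as they did in the other animals, and animal 54 was above the other 2 animals in both tissues. Mapping quality at this site was 19 to 25, below the median of 40 to 41 over all sites.

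The other sites of animals 108 and 136 had few variant reads. In animal 108, marrow had an intronic change in the kappa gene Igkv18-36 (6 of 22 reads) and a shortened repeat in Ighv7-1 (2 of 2 reads), and ear had 2 changes in the same Ighv7-1 intron (12 of 49 and 11 of 57 reads). In animal 136, ear had p.Thr313Ile in Ighg1 (6 of 45 reads, 13.3%, exact 95% interval 5.05% to 26.8%), a shortened repeat in Ighv7-1 (3 of 3 reads) and a shortened repeat in an intron of Igkv4-91 (21 of 100 reads). The Igkv4-91 deletion was also listed in marrow of animal 54 (11 of 64 reads). Each of these was listed in a single tissue of its animal.

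No shift in variant fraction between marrow and ear was detected at the shared segment sites. The median difference, marrow minus ear, came to -0.02 percentage points over the 425 sites of animal 54, to -0.45 at the 1 site of animal 108 and to 1.47 at the 1 site of animal 136. Its mean was 0.33 ± 1.01 points (SD, n = 3; exact paired permutation test, p = 1). The spread over the 425 sites was 6.13 points (SD). Of them 29 (6.82%) were over 10 points higher in marrow and 11 (2.59%) over 10 points lower. At the 32307 other shared sites of animal 54 the SD was 12.8 points, with 18.1% over 10 points higher and 18.0% lower. Median depths there were 41 reads in marrow and 72 in ear, against 276 and 479 at the segment sites, and the part of depth was not tested. With reads summed over the 425 sites, 94420 of 194074 (48.7%) were variant in marrow and 151381 of 312002 (48.5%) in ear.

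Tested site by site with Fisher's exact test on reads, no shared segment site differed between the tissues after adjustment over the animal's shared sites. Only sites listed in both tissues were tested. Of the 20 VarScan2 somatic calls inside segments of animal 54, described below, 19 were in neither all-variant list and were not tested. In animal 54, 0 of 422 segment sites passed an adjusted p of 0.05, where 0.0312% of 28890 sites did, and 54 (12.8%) had an unadjusted p under 0.05, where 8.66% of all sites did. Of those 54, 28 were higher and 26 lower in marrow. The segments were read more deeply than other sites, and that part in the share was not tested. Such a test sets 1 marrow library against 1 ear library and holds no spread between animals.

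Among the tested segment sites of animal 54, the smallest p was at p.Arg73Gly of Ighv1-85 (Fisher's exact test, adjusted p = 0.173). It had 625 of 1094 reads (57.1%) in marrow and 760 of 1511 (50.3%) in ear. Next came p.Gly52Val of Ighv1-81, with 457 of 1014 (45.1%) in marrow and 776 of 1503 (51.6%) in ear (Fisher's exact test, adjusted p = 0.231). Both sites lie in the distal V genes, and their directions were opposite. In animals 108 and 136 the 1 segment site tested did not pass Fisher's exact test (adjusted p = 1 in each), where 0.0339% and 0.0205% of all sites did. Neither site had an unadjusted p under 0.05, where 7.66% and 6.61% of all sites did. For Ighv1-69 p.Ser86Ala, the exact conditional test with animal as stratum gave an adjusted p of 0.648 over 4078 sites (unadjusted p = 0.0865, exact), where 0.0245% of sites passed and 9.12% had an unadjusted p under 0.05.

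Relative depth was compared because V(D)J recombination of Igh removes DNA between the joined segments. The log2 ratio of marrow to ear depth had a median of -0.71 at the shared segment sites of animal 54, against -0.76 at all other shared sites, a difference of 0.05. In animal 108 the only shared site stood at 0.04 against 0.21 (a difference of -0.16), and in animal 136 at 0.40 against 0.35 (0.05). The mean difference was -0.02 ± 0.13 (SD, n = 3; exact paired permutation test, p = 1). Scaled to other shared coding sites instead, a choice made after seeing the data, the difference turned its sign in every animal, to -0.10, 0.01 and -0.06 in animals 54, 108 and 136 (mean -0.049; exact paired permutation test, p = 0.5). Marrow of animal 54 was read less deeply than ear at segment sites and at other sites alike.

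Relative depth was set out gene by gene along the locus of animal 54. It was within 0.25 of the other sites in 66 of 74 genes, a bound that was not planned. The same share was not taken over other genes, so the count is a description. The constant genes had -0.20 (Igha), -0.05 (Ighe), -0.0013 (Ighg2c), 0.08 (Ighg2b), 0.05 (Ighg1), -0.01 (Ighg3) and 0.01 (Ighm) on this log2 scale. The single sites of Ighj1 and Ighd3-2 stood at 0.39 and 0.49, with 153 and 139 reads in marrow and 198 and 168 in ear. V sites within 500 kb of Ighj1 had a median of 0.02 (68 sites), and those 2000 to 2500 kb away had 0.11 (42 sites). The 13 sites beyond 2500 kb had 0.22. Ear depth was also higher in the distal V genes (481 reads within 500 kb, 1747 at 2000 to 2500 kb and 1453 beyond). Against other sites of like ear depth, the medians of successive 500 kb bins from Ighj1 outward were -0.07, -0.07, -0.0066, 0.0049, 0.08 and 0.21. The last of these rests on 13 sites in 3 genes. Over 41 V genes with at least 3 shared sites, relative depth had a Spearman correlation of 0.401 with distance from Ighj1 and of 0.462 with ear depth. Distance and ear depth had one of 0.695 with each other, and the separate parts of distance and depth were not tested.

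**Figure D3:**
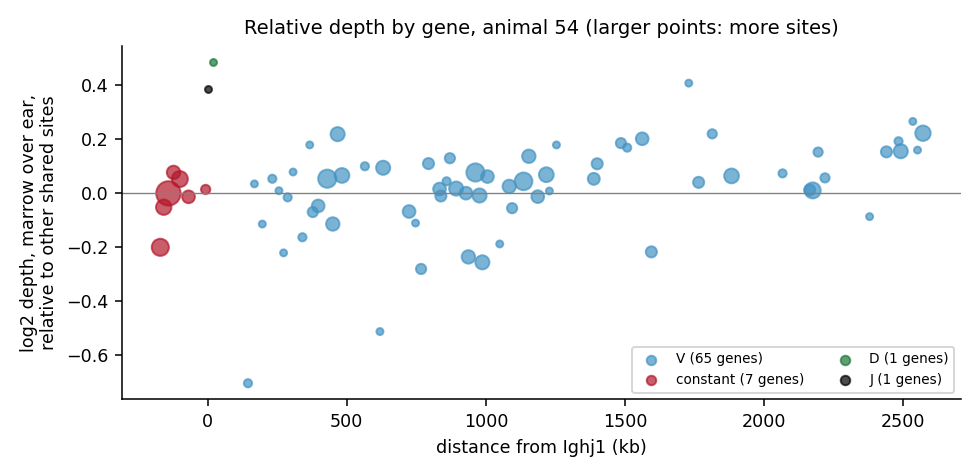
Log2 ratio of marrow to ear depth of each segment of animal 54, relative to the median of other shared sites (vertical axis, 0 marks that median), against distance from Ighj1 in kb (horizontal axis). Larger points have more shared sites. Ighj1 (0.39) and Ighd3-2 (0.49) rest on 1 site each.

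Somatic calls, variants that a caller attributes to marrow against ear of the same animal, were in the segments almost only in animal 54. VarScan2 listed 20 somatic calls inside segments there (exact Poisson 95% interval 12.2 to 30.9) among 1028 calls, and 0 among 1683 in animal 108 and 0 among 561 in animal 136 (each with an upper limit of 3.69). The 20 calls lay in 12 of the 88 segments with any listed site in that animal (13.6%), where 4.52% of 13022 genes with a listed site had such a call. These totals include genes listed by a somatic caller alone. Of the 80 segments with a site in an all-variant list, 7 (8.75%) had such a call, against 4.09% of 12279 genes. No segment had one in animals 108 and 136, where 7.19% and 3.15% of genes did, but only 4 segments were listed in each. With upstream and downstream sites included, 95 of the 1028 VarScan2 somatic calls of animal 54 (9.24%) named a segment. In animal 108, 1 of 1683 did (Igkv4-78, 11 of 42 reads in marrow and 0 of 23 in ear). Of all listed sites of animal 54, 1360 of 43259 in marrow and 1716 of 67945 in ear named a segment in this way. In animal 108 these were 28 of 79759 in marrow and 14 of 67274 in ear.

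Every one of the 20 calls had variant reads in ear. The fraction was 20.3% to 30.9% in marrow (median 23.3%) and 14.1% to 19.8% in ear (median 17.4%), a median difference of 5.59 points at median depths of 604 and 1003 reads. Over all 1028 somatic calls of the animal the lowest marrow fraction was 20%, 165 calls had no variant read in ear, and the medians were 29.4% in marrow and 10.3% in ear. All 1028 were higher in marrow, so the direction of the 20 is a property of the list. Of the 20, 19 stood in neither all-variant list of the animal, against 58.7% of the 933 somatic calls that name no segment.

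The 12 genes with these calls were Ighv2-9-1 (2), Ighv14-4 (4), Ighv6-3 (1), Ighv1-7 (1), Ighv1-22 (1), Ighv1-26 (2), Ighv1-36 (1), Ighv1-69 (1), Ighv1-72 (1), Ighv1-82 (3), Ighv1-83 (1) and Ighv1-85 (2), all V genes. In Ighv1-82, p.Ser32Ser had 204 of 660 reads (30.9%) in marrow and 170 of 857 (19.8%) in ear, and p.Glu89Val had 121 of 479 (25.3%) in marrow and 108 of 766 (14.1%) in ear. In Ighv1-26, p.Thr47Thr had 319 of 1161 (27.5%) in marrow and 335 of 1778 (18.8%) in ear, with the lowest somatic p of the 20 in the authors' deposited table (2.99e-08). The exact 95% intervals of marrow and ear do not overlap at 9 of the 20 calls, these 3 among them. They overlap at the other 11. Such intervals were not set out for the other somatic calls of the animal. The caller picked the sites for a difference between the tissues, so this is a description. Neighbouring calls in a gene can lie on the same reads, and 9 of the 20 were protein-altering.

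**Figure D4:**
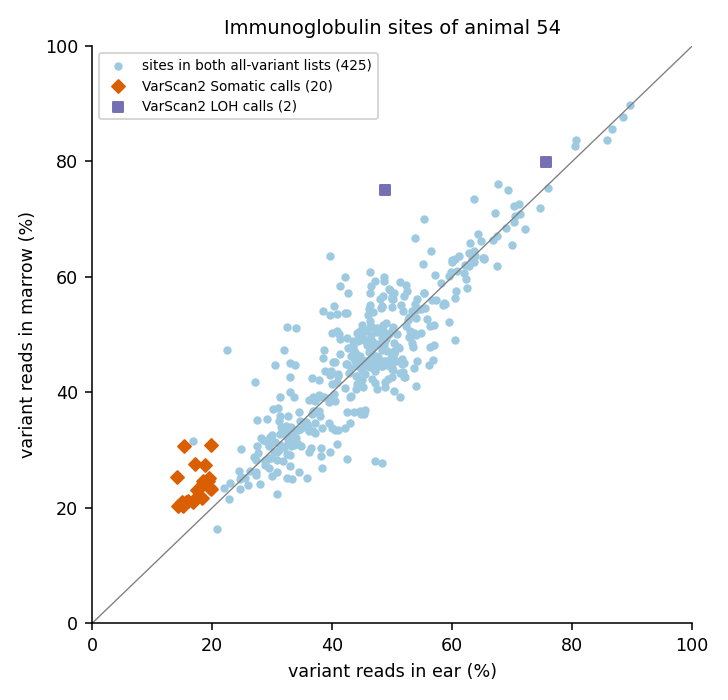
Variant reads in marrow (vertical axis, percent of both alleles) against variant reads in ear (horizontal axis) in animal 54. The 425 shared sites follow the diagonal. The 20 VarScan2 somatic calls inside segments lie between 20.3% and 30.9% in marrow and between 14.1% and 19.8% in ear, and the 2 LOH calls at 75.0% and 80.0% in marrow.

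VarScan2 marked 2 segment sites of animal 54 as LOH, loss of heterozygosity in marrow. They were an intronic site in Ighv13-2, with 18 of 24 reads (75.0%) in marrow and 20 of 41 (48.8%) in ear, and p.Phe49Ser in Ighv8-8, with 766 of 958 (80.0%) in marrow and 991 of 1311 (75.6%) in ear. They lie in 2.27% of the 88 listed segments, where 1.26% of genes had an LOH call (1.25% of the 80 and 1.29% of genes by the all-variant lists alone), and no segment had one in animals 108 and 136, where 0.959% and 0.407% of genes did. All 253 LOH calls of animal 54 had the higher variant fraction in marrow. At the 7 shared sites of Ighv13-2 the median was 59.1% in marrow (57.1% to 75.0%) and 48.6% in ear (42.6% to 52.4%), at median depths of 53 and 86 reads, and none passed Fisher's exact test after adjustment.

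Strelka calls inside segments were 3 in animal 54, 1 in animal 108 and 0 in animal 136, of 2933, 1532 and 2138 passed calls. In animal 54 they were p.Ser77Asn in Ighv1-77 (quality 53 in the authors' deposited table), the synonymous p.His2His in the kappa joining segment Igkj4 (quality 30) and an intronic site in Ighm (quality 26). In animal 108 it was p.Trp6Arg in Igkj5 (quality 26 in the authors' deposited table). The 3 segments were 3.41% of those listed in animal 54, where 20% of genes had a Strelka call. The 1 segment of animal 108 was 25.0% of the 4 listed there, where 10.8% of genes had a call, and in animal 136 none of 4 had one, where 16.9% of genes did. By the all-variant lists alone, 1 of 80 segments (1.25%) had a call in animal 54, where 15.8% of genes did, and 0 of 3 had one in animal 108, where 8.53% did. None of the 4 was in an all-variant list or in the VarScan2 list, and the files give no read counts for them.

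Genes that act on the segments were looked at beside them. Of the 12 genes of V(D)J recombination and end joining, Rag1, a subunit of the recombinase, had a protein-altering Strelka call in animals 54 and 108, and Prkdc, the DNA-dependent protein kinase, had one in animal 54. With any Strelka call were 2 of the 8 of these genes that had a listed site in animal 54 (25.0%), 1 of 8 in animal 108 (12.5%) and 1 of 6 in animal 136 (16.7%), where the shares over all genes were the 20%, 10.8% and 16.9% given above. Of the 12 genes of class switching and hypermutation, animal 54 had 17 listed sites in its marrow and 27 in its ear, and animal 108 had 130 in its marrow and 101 in its ear. Strelka calls were in 3 of 10 listed genes of that list for animal 54, in 3 of 11 for animal 108 (27.3%) and in 2 of 9 for animal 136 (22.2%), and 0, 3 and 2 of these calls had a coding effect. The mismatch repair gene Msh6 had a protein-altering one in animals 108 and 136. Of the 14 genes of the B cell receptor and its signalling, Btk, a kinase downstream of the receptor, had a protein-altering Strelka call in animal 54, the only Strelka call among 7 listed genes there (14.3%), and 1 of 4 listed genes had one in animals 108 and 136 each (25.0%). No test was made of these counts of 1 to 3 genes. The recombination, class switching and B cell receptor lists had 10, 8 and 0 sites tested with Fisher's exact test for animal 54, 4, 72 and 65 for animal 108, and 1, 4 and 0 for animal 136, and none of the tested sites passed after adjustment.

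The T cell receptor segments, the most alike genes by structure, had their sites in another animal. Animal 54 had 1 such site in its marrow and 4 in its ear, animal 108 had 196 in its marrow and 193 in its ear, and animal 136 had 3 in its marrow and 3 in its ear. Of 173 tested in animal 108, 0 passed Fisher's exact test after adjustment and 17 (9.83%) had an unadjusted p under 0.05, where 7.66% of all sites did. In that animal 15 VarScan2 somatic calls lay in 12 of 63 listed T cell receptor segments (19.0%), where 7.19% of genes had one.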

How the data were processed

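Exome libraries of marrow and ear of 3 mice were read from the deposited lists. Per the submitters' processing notes FastQC, Bowtie2 and SAMtools were used, with the builds GRCm38 and mm9. Which build served which step is not given in the sources used here. Per the file headers, the authors annotated sites with SnpEff, and their all-variant lists hold read counts per allele, depth and mapping quality. The VarScan2 lists hold the authors' deposited read counts in marrow and ear and a somatic p-value. The Strelka lists hold a quality and no reads. All 160 gene names matched RefSeq symbols, and 328 of 357 coding segment sites in marrow and 364 of 393 in ear of animal 54 lay inside the RefSeq span of the gene (assembly GRCm38.p6), and positions are therefore called GRCm38.

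A site belonged to a segment when its annotation was neither upstream, downstream nor intergenic. Sites were matched between lists by position and by both alleles as deposited. Marrow and ear were paired by animal, which the labels name. As a check, deviations of fractions from the tissue mean over 4268 sites correlated at 0.118, 0.161 and 0.100 within animals 54, 108 and 136. Tests were exact sign-flip permutations over animals, Fisher's exact test per single nucleotide site with at least 10 reads in each tissue, and an exact conditional test stratified by animal, with Benjamini-Hochberg adjustment at 0.05. Intervals (Clopper-Pearson, Poisson, 95%) cover counting error only, since reads are not independent molecules. With 1 library per tissue and animal, p-values from reads measure no spread between animals. On simulated reads the Fisher step for animal 54 (28890 sites) recovered 63.0% of shifts of 40 points and 16.0% of shifts of 20, and the stratified test (4078 sites) 96.0% and 67.0%. The shifted sites were drawn from all tested sites, not from the segments. Shared segment sites of animal 54 had median depths of 276 reads in marrow and 479 in ear, against 41 and 72 at other shared sites. Recovery at segment depths was not tested. Python 3.11.15, scipy 1.17.1 and R were used.

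Named genes were those with a somatic call, a passing site or a constant gene, the 10 with most sites, and per animal the 5 with most sites private to each tissue. The premature stops and indels, and the sites with the lowest p, were chosen after their values were seen. Members, lists and tests were chosen with earlier results of these data known.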

Additional observations from a re-analysis of the deposited data

How the results depend on the processing

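Of 73 alternative values, 59 kept their direction or stayed within 1.5 times the count. The 59 include values that could hardly move. The stratified test had 1 segment site, and Fisher's exact test in animals 108 and 136 had 0 or 1. For relative depth, the Igh locus alone held the same shared sites as the main setting. The fraction difference reversed with a mapping quality of at least 30 (-0.14 points, animal 54 alone), and leaving out 1 animal gave -0.24 to 0.73 points. The relative depth reversed with upstream and downstream sites (mean 0.22), where animal 108 stood at 0.79 on 4 shared sites. Animals 54 and 136 stood at -0.062 and -0.066 there. Relative depth also reversed with a mapping quality of at least 30 (0.027, animal 54 alone) and scaled to the same chromosome (0.011). Chosen after seeing the data, scaling to other sites over 100 reads deep in ear reversed it too (0.014). Leaving out 1 animal gave a mean relative depth of -0.058 to 0.052. The cause was not tested. Both main values were within 1 SD of 0. Leaving out 1 animal gave -1.06 to -0.064 for the log2 ratio of sites and -41.5 to -4.03 points for the private share. Without animal as the replicate block (unpaired exact permutation) the 4 values were -0.71, -27.7, 0.32 and -0.04, and the stratified test called 0 segment sites with and without the block.

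VarScan2 somatic calls inside segments of animal 54 fell to 0 when none of the ear reads was variant. With upstream and downstream sites they were 95 of 1028 calls, where animal 108 had 1 of 1683. Strelka calls were 5, 2 and 1 in animals 54, 108 and 136 with such sites, and 0 in animal 108 at a quality of at least 30. A minimum variant quality was not run, since the lists hold none, and Igk and Igl had no shared site for the depth comparison. Values of animals 108 and 136 rest on 1 shared site each, so depth and number of sites limit every value over the 3 animals. The private share difference was -6.97 points with upstream and downstream sites and -1.30 at a mapping quality of at least 30. The scaling to other coding sites (-0.049), the trimmed alleles (-27.7 points for the private share) and the reads summed over shared sites (0.39 points) were also chosen after seeing the data.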
